A study of Bos taurus with 10 samples.

Results

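The cytosolic ribosomal protein genes encode the proteins of the ribosome that works in the cytoplasm. They were taken by gene symbol, as RPL genes of the large subunit and RPS genes of the small subunit, without the RPS6 kinases and RPS19BP1, and without symbols that stand on more than 1 line of the table. This gave 84 of 28700 genes, 51 of the large and 33 of the small subunit. All 84 were matched by symbol to protein-coding genes of the RefSeq annotation of the ARS-UCD2.0 assembly.

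Their transcripts were measured by RNA sequencing of bovine embryos in 10 libraries. Zygotes had been injected with siRNA (small interfering RNA) that targets H1FOO, a linker histone specific to oocytes (KD, for knockdown), or with control siRNA (NC, for negative control). The groups were KD 8/16-cell embryos (2 libraries) and NC 8/16-cell embryos (2 libraries), 4 days after insemination, and KD morulae (3 libraries) and NC morulae (3 libraries), 5.5 days after insemination. The titles call the earlier stage 16-cell. The labels give neither the number of embryos in a library nor the breed of the parents, and NC embryos were injected as well. They do not say that libraries of a group came from separate collections, so a p-value here reflects the spread among libraries, which may be technical. The title gives the role of H1FOO in the early bovine embryo as the question of the series.

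Each of these proteins occupies a defined place in 1 of the 2 subunits, and a ribosome needs the whole set, so cells usually make the proteins in matched amounts. The messenger RNAs of vertebrate ribosomal proteins begin with a stretch of pyrimidines, the terminal oligopyrimidine (TOP) motif, through which mTORC1 and LARP1 control their translation together. In mammalian embryos the ribosomes inherited from the oocyte serve the earliest divisions, and production of ribosomes resumes when the embryonic genome is activated.

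The deposited values are FPKM, fragments normalised for gene length and library size, so every value is a share of its library and all differences are relative to the other transcripts. In whole embryos, fewer cells of a type and less RNA per cell cannot be told apart. H1FOO had 0.649 and 0.0736 FPKM in KD 8/16-cell embryos, against 50.9 and 10.8 FPKM in NC 8/16-cell embryos. It had 0.061, 0.191 and 0.251 FPKM in KD morulae, against 0.294, 1.05 and 2.17 FPKM in NC morulae, where the control level was itself low. Of 7 markers of preimplantation embryos, 6 reached 1 FPKM in all libraries. Summed markers of cumulus and granulosa cells, which surround the oocyte, reached 138 to 155 FPKM in KD and 87.3 to 93.2 FPKM in NC 8/16-cell embryos, with FSHR at 0 in all libraries. In morulae that sum was 63.2 to 133 FPKM in KD and 73.4 to 84.9 FPKM in NC. The genes of this list went different ways between stages. SERPINE2 alone stood at 75.8, 50.1 and 45.0 FPKM in NC morulae, against 25.1 and 27.8 FPKM in NC 8/16-cell embryos. VIM stood at 0.346, 5.40 and 5.42 FPKM in NC morulae, against 16.4 and 20.3 FPKM in NC 8/16-cell embryos. In KD morulae VIM stood at 3.44, 11.0 and 43.3 FPKM, against 31.9 and 41.5 FPKM in KD 8/16-cell embryos. The part of these cells in the ribosomal protein levels was not tested.

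KD 8/16-cell replicate 1 stood apart from the other libraries, in that the MIR2887 entries took 27.1% of its summed FPKM. They took 8.06% in KD 8/16-cell replicate 2 and were at 0 in the 8 other libraries. The results that rest on replicate 1 are therefore given with and without it. The columns of the 2 stages pair repeated symbols differently and were probably made apart, so a comparison of stages also carries any difference in how they were made.

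The ribosomal protein genes were among the most abundant messenger RNAs of these embryos. Of the 84 genes, 80 had a mean of at least 100 FPKM over the 10 libraries, a level that 702 of all genes reached, and they made up 23 of the 35 genes whose mean reached 1000 FPKM. Together they held 14.1% and 14.6% of the summed FPKM in KD 8/16-cell embryos, against 17.0% and 14.9% in NC 8/16-cell embryos. They held 16.8%, 13.6% and 18.0% in KD morulae, against 17.3%, 14.1% and 18.6% in NC morulae. The treatments overlapped in morulae but not at the 8/16-cell stage. There the MIR2887 entries entered the sum. Without these entries and the RN18S1 ribosomal RNA, the shares were 19.6% and 16.1% in KD and 17.1% and 15.3% in NC 8/16-cell embryos, and overlapped.

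The highest levels belonged to proteins of both subunits. RPS2, a core protein of the small subunit near the messenger RNA entry, averaged 2956 FPKM over all libraries. RPL13A, which can also leave the ribosome to regulate translation in human cells, averaged 2376 FPKM. RPS29, a small zinc-binding protein of the small subunit, averaged 2061 FPKM, and RPLP1, an acidic protein of the flexible stalk that recruits elongation factors, averaged 1930 FPKM. RPS3, a protein of the messenger RNA entry channel that also takes part in DNA repair, averaged 1670 FPKM.

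The lowest of the 82 genes that reached a mean of 1 FPKM were the copies RPL22L1 with 48.0 FPKM, RPL7L1 with 86.9 FPKM, RPL26L1 with 110 FPKM, RPS27L with 157 FPKM and RPS4Y1 with 159 FPKM. The highest and the lowest of these 82 genes differed 61.6-fold. The remaining 2 genes were not tested. RPL3L, which replaces RPL3 in muscle, was listed at 0 in 8 libraries and at 0.13 and 0.073 FPKM in NC 8/16-cell embryos. RPL10L, a copy of RPL10 that mice use in the testis, stood at 2.79, 2.65 and 0.75 FPKM in KD morulae, against 0.143, 0.921 and 0 FPKM in NC morulae. It stood at 0.692 and 0.331 FPKM in KD 8/16-cell embryos, against 0.527 and 0.296 FPKM in NC 8/16-cell embryos.

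**Figure D1:**
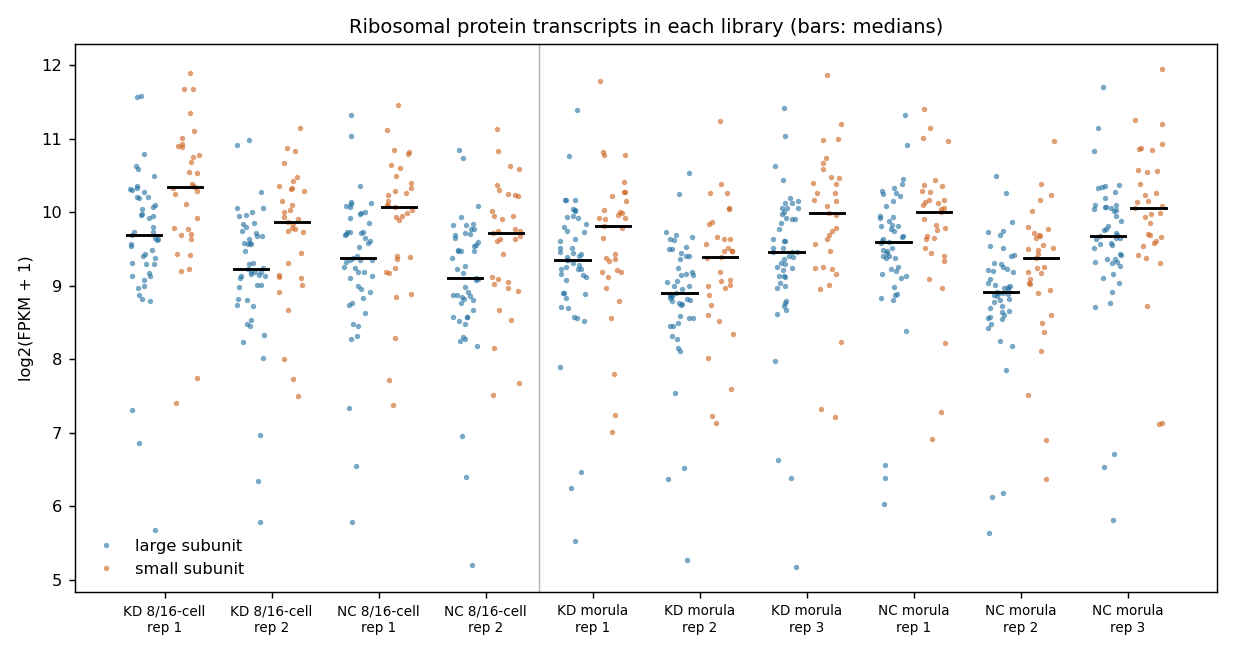
Level of each of the 82 tested ribosomal protein genes, as log2(FPKM + 1), in each of the 10 libraries, with the large subunit in blue, the small subunit in orange and a black bar at each median. The small subunit has the higher median in every library, and whole libraries move together: KD morula replicate 2 and NC morula replicate 2 are the lowest.

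The genes moved together from library to library. The median standard deviation of log2(FPKM + 1) over the 10 libraries was 0.33 for the ribosomal protein genes and 0.39 for all 11761 tested genes. It was 0.18 for the ribosomal protein genes once the mean of the 82 genes in each library had been subtracted. The library with the highest level was KD 8/16-cell replicate 1 for 42 genes, NC morula replicate 3 for 21 genes and NC morula replicate 1 for 11 genes. The lowest level was in KD morula replicate 2 for 37 genes, in NC morula replicate 2 for 32 genes and in NC 8/16-cell replicate 2 for 10 genes. Both morula libraries numbered 2 were thus low in both treatments.

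The median FPKM of the ribosomal protein genes was 982 and 762 in KD 8/16-cell embryos, against 814 and 702 in NC 8/16-cell embryos. It was 691, 534 and 789 in KD morulae, against 840, 523 and 886 in NC morulae. KD and NC libraries overlapped at both stages. RN18S1, a ribosomal RNA that oligo(dT) capture should leave behind, varied as well. It stood at 5640 and 5098 FPKM in KD and 3383 and 9367 FPKM in NC 8/16-cell embryos. In morulae it stood at 9053, 8553 and 11581 FPKM in KD, against 2704, 2983 and 8611 FPKM in NC morulae. With RN18S1 as a covariate in the limma fit, 0 of the 82 genes passed between KD and NC at either stage, where 0.034% of all tested genes passed at the 8/16-cell stage and 0% in morulae, so that this fit says nothing about the family in particular.

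At the 8/16-cell stage, KD against NC, 0 of the 82 genes passed the test across all genes (limma, Benjamini-Hochberg adjusted p under 0.05), where 0.017% of all tested genes did. None had an unadjusted p under 0.05, where 4.37% of all tested genes did, and every adjusted p was 1. A log2 difference is given here as the mean log2(FPKM + 1) of KD minus that of NC. It had a median of 0.22 over the ribosomal protein genes, a 1.17-fold higher level in KD, and was above 0 for 81 of 82 genes. The median became -0.18 when each library was rescaled to an equal FPKM sum and -0.01 without KD 8/16-cell replicate 1. With the MIR2887 entries and RN18S1 left out of the sum it was 0.10, with 71 of 82 genes above 0. Median-of-ratios scaling gave 0.19, with 79 of 82 genes above 0, and quantile normalization gave -0.01. The median over all tested genes was 0.01, and that over the 622 other genes whose mean reached 100 FPKM was 0.08. Rescaling to an equal FPKM sum moved the median of all genes to -0.32, so the ribosomal protein genes lay 0.21 above all genes before it and 0.14 above after it. Without KD 8/16-cell replicate 1 they lay at -0.04 relative to all genes. Their median was 0.48 without KD 8/16-cell replicate 2, 0.36 without NC 8/16-cell replicate 1 and 0.07 without NC 8/16-cell replicate 2.

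At this stage the median log2 difference was 0.20 for the 49 large-subunit genes and 0.25 for the 33 small-subunit genes. Values of KD and NC were separate, with KD higher, for 12 of the 82 genes, against 19.3% of all tested genes. With KD lower, this held for 0 of the 82 genes, against 13.9% of all tested genes. The median SE of a ribosomal protein gene in this comparison was 0.33, larger than the median difference.

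Outlying genes at the 8/16-cell stage were RPL22, RPS20 and RPL37, which lay more than 3 scaled median absolute deviations above the median of the family. RPL22, an RNA-binding protein of the large subunit that restrains its copy RPL22L1 in mice, stood at 791 and 302 FPKM in KD embryos, against 319 and 314 FPKM in NC embryos. Its log2 difference was 0.63 (SE 0.41, limma adjusted p = 1). Only KD replicate 1 was high, and the other 3 libraries lay close together. RPS20, a small-subunit protein of the head, stood at 3282 and 1253 FPKM in KD embryos, against 1438 and 1207 FPKM in NC embryos, a log2 difference of 0.62 (SE 0.53, limma adjusted p = 1). RPL37, a zinc-binding protein of the large subunit, stood at 1579 and 823 FPKM in KD embryos, against 852 and 750 FPKM in NC embryos, a log2 difference of 0.51 (SE 0.51, limma adjusted p = 1). Without KD replicate 1 the differences of these genes were -0.07 for RPL22, -0.07 for RPS20 and 0.04 for RPL37.

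In morulae, KD against NC, 0 of the 82 genes passed the limma test, where 0.697% of all tested genes did (0.145% higher and 0.553% lower in KD). An unadjusted p under 0.05 was found for 1 of 82 genes and for 21.2% of all tested genes. With the replicate number as a block, 0 of 82 passed as well, where 11.9% of all tested genes did. In that fit 9 of 82 genes had an unadjusted p under 0.05, which at least the 11.9% of all tested genes that passed also had. The median log2 difference of the ribosomal protein genes was -0.14, a 0.908-fold level in KD, with 69 of 82 genes below 0. It was below 0 under every scaling tried, and above 0 without KD morula replicate 2 (0.04) or without NC morula replicate 3 (0.02). It was -0.38, with 3 of 82 genes above 0, without NC morula replicate 2, -0.25 without KD morula replicate 3 and -0.06 without NC morula replicate 1. Without both morula libraries numbered 2 it was -0.19, with 9 of 82 genes above 0. With RN18S1 as a covariate it was -0.29. The median over all tested genes was -0.08, and that over the 622 other abundant genes was -0.09. The large subunit had a median of -0.15 and the small subunit one of -0.13. Values of KD and NC were separate, with KD lower, for 1 of the 82 genes, against 15.3% of all tested genes, and with KD higher for 0 of 82, against 8.44%.

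The gene without overlap was RPL22L1, the copy of RPL22. It stood at 45.1, 37.5 and 35.2 FPKM in KD morulae, against 64.3, 48.6 and 55.0 FPKM in NC morulae. Its mean was 39.3 ± 5.20 FPKM in KD and 56.0 ± 7.89 FPKM in NC morulae (SD, n = 3 each), a log2 difference of -0.50 (SE 0.19, limma adjusted p = 0.169). With the replicate number as a block its limma adjusted p was 0.07595, the lowest of the family. At the 8/16-cell stage RPL22L1 had 49.96 and 54.3 FPKM in KD embryos, against 54.0 and 35.9 FPKM in NC embryos, and the groups overlapped. RPL36AL, the copy of RPL36A, had the lowest difference of the family in morulae. It stood at 237, 186 and 251 FPKM in KD morulae, against 334, 232 and 417 FPKM in NC morulae, a log2 difference of -0.51 (SE 0.26, limma adjusted p = 0.291), with overlap between 251 FPKM in KD and 232 FPKM in NC. Within each pair of the same replicate number the KD library was the lower, a description with no test.

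Outlying genes in morulae included RPS4Y1 and RPL39, on the upper side. RPS4Y1, a form of the small-subunit protein RPS4, stood at 128, 140 and 147 FPKM in KD morulae, against 120, 81.7 and 138 FPKM in NC morulae, a log2 difference of 0.32 (SE 0.19, limma adjusted p = 0.375). RPL39, a small protein lining the exit tunnel of the large subunit, stood at 983, 797 and 1591 FPKM in KD morulae, against 1136, 583 and 1077 FPKM in NC morulae, a log2 difference of 0.27 (SE 0.32, limma adjusted p = 0.668). The groups overlapped for both genes, and KD replicate 3 was the highest KD library for each.

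**Figure D2:**
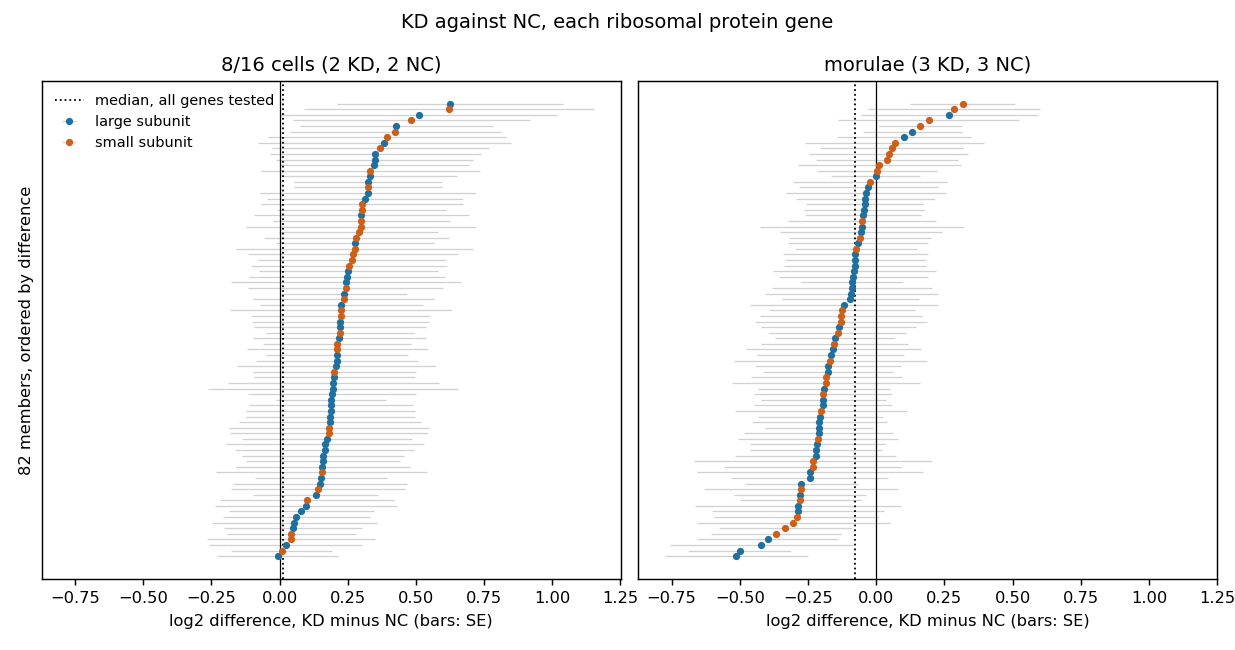
Log2 difference, KD minus NC, of each of the 82 ribosomal protein genes at the 8/16-cell stage (left) and in morulae (right), ordered by size, with bars for 1 SE and a dotted line at the median of all tested genes. At the 8/16-cell stage 81 genes lie right of 0. The median of the 82 genes turns to -0.18 when libraries are rescaled to an equal sum. It is 0.10 when that sum leaves out the MIR2887 entries and RN18S1. In morulae 69 genes lie left of 0, and 0 genes passed the test at either stage.

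The change of the knockdown effect between stages was tested as an interaction, the difference KD minus NC in morulae less that at the 8/16-cell stage. Of the 82 genes 0 passed, where 0.017% of all tested genes did, 1 gene had an unadjusted p under 0.05, against 9.39% of all tested genes, and the lowest limma adjusted p was 0.505. The median was -0.33, with 79 of 82 genes below 0, but it became 0.13 when libraries were rescaled to an equal sum and -0.12 without KD 8/16-cell replicate 1. With the MIR2887 entries and RN18S1 left out of the sum it was -0.14, and with median-of-ratios scaling -0.21. Without both morula libraries numbered 2 it was -0.40. It was -0.55 without KD 8/16-cell replicate 2, -0.58 without NC morula replicate 2, -0.17 without KD morula replicate 2 and -0.21 without NC 8/16-cell replicate 2 or NC morula replicate 3. RPL22 lay lowest with -1.05 (SE 0.53, limma adjusted p = 0.558), and -0.35 without KD 8/16-cell replicate 1. RPS4Y1 lay highest with 0.27 (SE 0.31, limma adjusted p = 0.783).

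From the 8/16-cell stage to the morula, few ribosomal protein genes passed the test in either treatment without a block, while many other genes did. With the replicate number as a block, 33 of 82 passed in KD and 14 of 82 in NC embryos. There 30% and 39% of all tested genes passed, though the numbers are not taken to pair the stages. Without the block, 1 of 82 genes passed in KD embryos, lower in morulae, where 20% of all tested genes passed, 5.22% higher and 14.8% lower. An unadjusted p under 0.05 was found for 8 of 82 genes and for 36.1% of all tested genes. The median log2 difference, morula minus 8/16-cell, was -0.30 for the ribosomal protein genes, -0.18 for all tested genes and -0.20 for the 622 other abundant genes, and 70 of 82 genes were below 0; after rescaling to an equal sum the medians were 0.18 for the ribosomal protein genes and 0.21 for all tested genes. With the MIR2887 entries and RN18S1 left out of the sum, the median of the ribosomal protein genes was -0.09, and with median-of-ratios scaling it was also -0.09. It was -0.12 without KD 8/16-cell replicate 1, -0.47 without KD 8/16-cell replicate 2 and -0.16 without KD morula replicate 2. Morula and 8/16-cell libraries did not overlap, with morulae lower, for 21 of 82 genes, against 36.7% of all tested genes. With morulae higher this held for 1 of 82 genes, RPL5, against 16.6% of all tested genes. RPL5, which binds 5S ribosomal RNA and can restrain MDM2, is named after its values were seen. It stood at 477, 450 and 500 FPKM in KD morulae, against 443 and 449 FPKM in KD 8/16-cell embryos, a narrow range. In NC embryos it stood at 508, 441 and 480 FPKM in morulae, against 428 and 358 FPKM at the 8/16-cell stage, also without overlap. Its log2 difference was 0.09 in KD (limma adjusted p = 0.757) and 0.28 in NC embryos (limma adjusted p = 0.264).

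In NC embryos, without the block, 2 of 82 genes passed, both lower in morulae, where 30.8% of all tested genes passed, 12.6% higher and 18.2% lower. Some other scalings called further genes, some of them higher in morulae, while these 2 genes stayed lower. Median-of-ratios scaling again called only these 2 genes, where 31.7% of all tested genes passed. With libraries rescaled to an equal sum, 5 genes passed, 3 of them higher, where 21.9% of all tested genes passed. When the sum left out the MIR2887 entries and RN18S1, 7 passed, 5 of them higher, where 26.4% did. With quantile normalization 12 passed, 6 of them higher, where 32.4% did. An unadjusted p under 0.05 was found for 3 of 82 genes and for 43.7% of all tested genes. The median log2 difference was 0.06 for the ribosomal protein genes and -0.07 for all tested genes, with 47 genes above 0 and 35 below. The median of the ribosomal protein genes was above 0 under every scaling tried and below 0 without NC 8/16-cell replicate 2 (-0.09), NC morula replicate 1 (-0.01) or NC morula replicate 3 (-0.12). It was 0.29, with 70 of 82 genes above 0, without NC morula replicate 2, and 0.18 without NC 8/16-cell replicate 1. Morula and 8/16-cell libraries did not overlap, with morulae higher, for 7 of 82 genes, against 24.3% of all tested genes, and with morulae lower for 4 of 82, against 32.6%. Across the 82 genes, the stage differences in KD and in NC embryos, which share no library, had a Pearson correlation of 0.733. It was 0.717 across all tested genes. These are descriptions across genes, which are not independent replicates. Of the 82 genes, 35 had lower means in morulae in both treatments and 12 had higher means in both. These counts depend on the scaling. In KD embryos 12 of 82 genes were higher in morulae, against 57 with equal FPKM sums and 35 with median-of-ratios scaling.

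RPSA was the gene that passed in KD embryos. It is the small-subunit protein that also binds laminin outside the ribosome. It stood at 584, 387 and 572 FPKM in KD morulae, against 1306 and 873 FPKM in KD 8/16-cell embryos, and at 678, 389 and 765 FPKM in NC morulae, against 982 and 815 FPKM in NC 8/16-cell embryos. The stages did not overlap in either treatment. The log2 difference was -1.08 in KD embryos (SE 0.33, limma adjusted p = 0.0428) and -0.61 in NC embryos (SE 0.33, limma adjusted p = 0.18). The call in KD embryos was lost without any 1 of the 10 libraries other than NC morula replicates 2 and 3, with adjusted p up to 0.253 without KD 8/16-cell replicate 1. It was lost when only the KD libraries were fitted (limma adjusted p = 0.0651). In that fit RPS4Y1 passed instead (-0.62, limma adjusted p = 0.0414), where 14.3% of all tested genes passed. The RPSA call was also lost when libraries were rescaled to an equal sum, where the difference was -0.60 and the limma adjusted p 0.0826. Under that scaling 2 other genes passed, RPL36A and RPL10, both higher in KD morulae, where 11.3% of all tested genes passed.

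RPS4Y1 and RPL26L1 were the genes that passed in NC embryos. RPS4Y1 carries the name of a gene on the human Y chromosome, but the RefSeq annotation places the bovine gene on an autosome. It stood at 120, 81.7 and 138 FPKM in NC morulae, against 209 and 204 FPKM in NC 8/16-cell embryos, a log2 difference of -0.90 (SE 0.22, limma adjusted p = 0.0117). In KD embryos it stood at 128, 140 and 147 FPKM in morulae, against 215 and 212 FPKM at the 8/16-cell stage, a log2 difference of -0.62 (SE 0.22, limma adjusted p = 0.0659). The stages did not overlap in either treatment, and 8/16-cell libraries lay within a narrow range of each other.

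RPL26L1, a close copy of the large-subunit protein RPL26, stood at 93.6, 68.9 and 91.9 FPKM in NC morulae, against 160 and 123 FPKM in NC 8/16-cell embryos. Its log2 difference was -0.74 (SE 0.20, limma adjusted p = 0.0203). In KD embryos it stood at 87.8, 91.2 and 97.9 FPKM in morulae, against 157 and 124 FPKM at the 8/16-cell stage, a log2 difference of -0.60 (SE 0.20, limma adjusted p = 0.0603). Again no morula library reached the level of an 8/16-cell library. Both calls in NC embryos were lost without NC 8/16-cell replicate 1 (limma adjusted p = 0.0799 for RPS4Y1 and 0.173 for RPL26L1), that of RPS4Y1 also without NC 8/16-cell replicate 2 (0.0665). Both were lost when only the NC libraries were fitted (0.0511 and 0.0597).

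**Figure D3:**
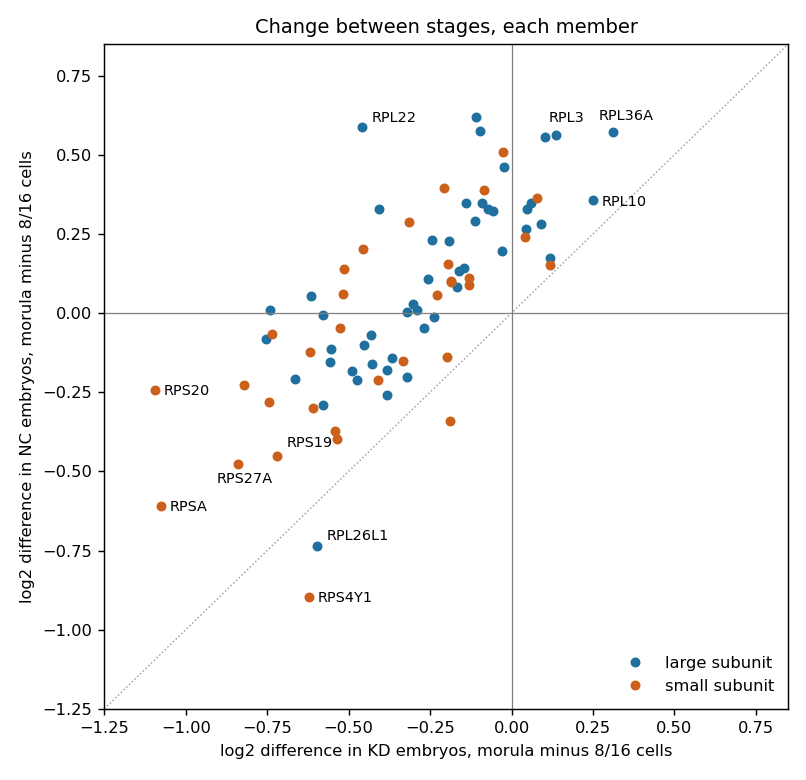
Log2 difference, morula minus 8/16-cell, of each of the 82 ribosomal protein genes in KD embryos (x axis) and NC embryos (y axis), with the large subunit in blue, the small subunit in orange and a dotted line where both are equal. Some small-subunit genes, such as RPSA and RPS27A, lie at the lower left, as does the large-subunit gene RPL26L1. Some large-subunit genes, such as RPL36A, RPL3 and RPL10, lie at the upper right, as does the small-subunit gene RPS3. The subunits overlap widely, with 19 of 33 small-subunit genes below the family median in KD and 18 in NC embryos. The position of the whole cloud on the x axis depends on the scaling, since its median of -0.30 becomes 0.18 with libraries rescaled to an equal sum.

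The medians of the subunits lay apart in this stage comparison. In KD embryos the median log2 difference, morula minus 8/16-cell, was -0.26 for large-subunit genes and -0.41 for small-subunit genes. In NC embryos it was 0.11 for large-subunit genes and -0.05 for small-subunit genes. The large subunit thus lay 0.16 above the small subunit in KD embryos and 0.15 above it in NC embryos, a gap that a scaling factor per library hardly alters. With quantile normalization the gap was 0.01 in KD and 0.10 in NC embryos, and without KD 8/16-cell replicate 1 it was 0.06 in KD embryos. The gap is a description of the chosen genes, with no test.

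The ratio of the summed FPKM of large-subunit genes to that of small-subunit genes gave the same picture within each library. It was 1.13, 1.10 and 1.05 in KD morulae, against 0.967 and 1.04 in KD 8/16-cell embryos. It was 1.17, 1.14 and 1.10 in NC morulae, against 1.02 and 1.04 in NC 8/16-cell embryos. Every morula library lay above every 8/16-cell library, though by little in KD morula replicate 3. Means were 1.09 ± 0.041 in KD morulae and 1.14 ± 0.033 in NC morulae (SD, n = 3 each), and 1.005 ± 0.054 in KD and 1.03 ± 0.017 in NC 8/16-cell embryos (SD, n = 2 each). Between treatments the ratios overlapped at both stages. In morulae, where the replicate numbers were taken as pairs, the ratio in KD was below that of the NC library of the same number in all 3 pairs, a description with no test.

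This difference was not shared by all genes of a subunit. Of the 33 small-subunit genes, 19 lay below the family median of the stage difference in KD embryos, 18 in NC embryos and 15 in both. Of the 49 large-subunit genes, 27 lay above it in KD embryos, 26 in NC embryos and 24 in both. RPS3 and RPS2 went with the upper part of the family, with stage differences of 0.08 and 0.12 in KD embryos and 0.36 and 0.15 in NC embryos. RPL26L1, RPL37 and RPLP1 went with the lower part in KD embryos, with -0.60, -0.74 and -0.56.

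To describe the make-up of the family apart from its overall level, the mean log2 level of the 82 genes in each library was subtracted from each gene. On this scale RPSA lay 0.48 and 0.38 above the family mean in KD 8/16-cell embryos and 0.41 and 0.41 above it in NC 8/16-cell embryos. In morulae it lay below the mean, at -0.19, -0.39 and -0.40 in KD and at -0.19, -0.38 and -0.16 in NC. The earlier stage was thus above the family mean in all 4 libraries and the later below it in all 6.

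RPS27A, made as a fusion of ubiquitin with a small-subunit protein, lay at -0.17, 0.01 and -0.08 in KD morulae, against 0.49 and 0.40 in KD 8/16-cell embryos. It lay at 0.06, -0.08 and -0.13 in NC morulae, against 0.57 and 0.37 in NC 8/16-cell embryos. RPS19, a small-subunit protein mutated in Diamond-Blackfan anaemia in humans, lay at 0.76, 0.85 and 1.03 in KD morulae, against 1.482 and 1.09 in KD 8/16-cell embryos, and at 0.57, 0.67 and 0.83 in NC morulae, against 1.26 and 1.11 in NC 8/16-cell embryos. The stages did not overlap for either gene in either treatment on this scale.

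RPL3, a protein of the peptidyl transferase centre of the large subunit, showed the opposite order. It lay at -0.16, -0.19 and -0.32 in KD morulae, against -0.69 and -0.66 in KD 8/16-cell embryos, and at -0.15, -0.29 and -0.09 in NC morulae, against -0.70 and -0.68 in NC 8/16-cell embryos. RPL10, a late-joining protein of the large subunit, lay at 0.64, 0.64 and 0.50 in KD morulae, against -0.13 and 0.18 in KD 8/16-cell embryos. In NC embryos it lay at 0.69, 0.70 and 0.14 in morulae, against 0.12 and 0.28 at the 8/16-cell stage, where the stages overlapped through NC morula replicate 3.

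The test run closest to this scale was a limma fit with the summed FPKM of the ribosomal protein genes made equal in all libraries. It was chosen after the data had been seen. That fit evens out a sum, in which abundant genes weigh more, rather than the mean log2 level of the 82 genes. In KD embryos it called 1 of 82 genes between the stages, RPSA, with -0.76 (SE 0.15, adjusted p = 0.0135), where 3.79% of all tested genes passed. In NC embryos it called 5 of 82 genes, where 12.3% of all tested genes passed. RPSA had -0.65 in NC embryos (SE 0.15, adjusted p = 0.0135), RPS27A had -0.51 (SE 0.15, adjusted p = 0.0408), RPS19 had -0.49 (SE 0.15, adjusted p = 0.0414) and RPS4Y1 had -0.93 (SE 0.25, adjusted p = 0.027), while RPL3 had 0.53 (SE 0.16, adjusted p = 0.0454). In KD embryos RPS27A had -0.52 (adjusted p = 0.0738) and RPL3 had 0.45 (adjusted p = 0.138) and neither passed. Between KD and NC at either stage 0 of 82 genes passed in this fit, where 0.0425% of all tested genes did at the 8/16-cell stage and 0.0085% in morulae.

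**Figure D4:**
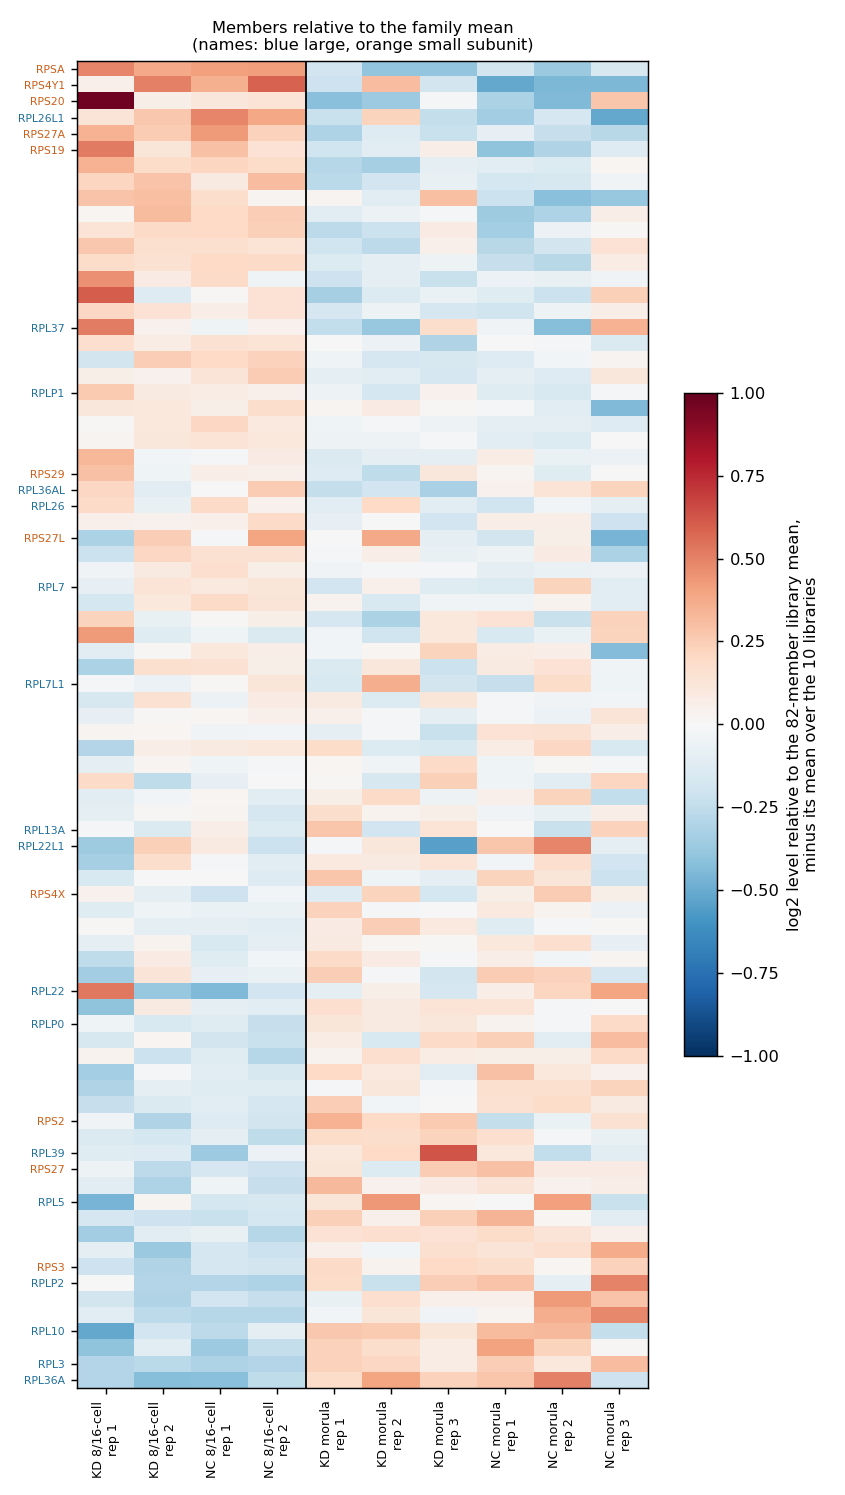
Log2 level of each of the 82 ribosomal protein genes (rows, with names for some) relative to the mean of the 82 genes in that library, minus its own mean over the 10 libraries (columns, with KD left of NC within a stage), in red where above and blue where below; the colour scale ends at 1 log2 unit either way. RPSA, RPS4Y1, RPL26L1 and RPS27A at the top are red in the 8/16-cell libraries and mostly blue in the morulae, and RPL3 and RPL36A at the bottom show the opposite; the deepest red is RPS20 in KD 8/16-cell replicate 1.

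The proteins of the stalk, the arm of the large subunit that recruits elongation factors, did not pass in any of the 5 comparisons in the fit over all libraries. Between stages, RPLP1 passed in KD embryos with the replicate number as a block (-0.74, limma adjusted p = 0.0054), and RPLP2 passed in NC embryos without both morula libraries numbered 2 (0.96, limma adjusted p = 0.0413). RPLP0, its base, stood at 991, 740 and 1113 FPKM in KD morulae, against 1084, 682 and 1329 FPKM in NC morulae, and at 1238 and 822 FPKM in KD 8/16-cell embryos, against 927 and 712 FPKM in NC 8/16-cell embryos. RPLP1 stood at 1750, 1222 and 2099 FPKM in KD morulae, against 1930, 1231 and 2279 FPKM in NC morulae, and at 3033 and 1938 FPKM in KD 8/16-cell embryos, against 2104 and 1715 FPKM in NC 8/16-cell embryos. RPLP2, the partner of RPLP1, stood at 625, 358 and 734 FPKM in KD morulae, against 775, 388 and 990 FPKM in NC morulae, and at 762 and 450 FPKM in KD 8/16-cell embryos, against 495 and 406 FPKM in NC 8/16-cell embryos. Treatments overlapped for all 3 genes at both stages. RPLP1 and RPLP2, which bind as a pair, had stage differences of -0.56 (SE 0.35, limma adjusted p = 0.283) and -0.10 (SE 0.42, limma adjusted p = 0.894) in KD embryos, and of -0.11 and 0.57 in NC embryos.

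Several ribosomal proteins have a related copy encoded by a second gene, and 6 such copies were tested beside the gene they resemble. How the authors' counting split reads between near-identical sequences is not given in the sources used here, so these levels are uncertain. RPL36AL reached 41.0% of the FPKM of RPL36A on average in KD morulae, against 78.1% in KD 8/16-cell embryos, and 58.2% in NC morulae, against 80.9% in NC 8/16-cell embryos. In single libraries it was 43.8%, 39.1% and 39.98% in KD morulae and 50.1%, 45.4% and 79.1% in NC morulae, so that only NC morula replicate 3 lay in the range of the 8/16-cell libraries, from 72.9% to 83.5%. RPL36A itself stood at 541, 476 and 628 FPKM in KD morulae, against 542 and 356 FPKM in KD 8/16-cell embryos, and at 666, 510 and 527 FPKM in NC morulae, against 394 and 365 FPKM in NC 8/16-cell embryos. RPL36A had log2 stage differences of 0.31 (SE 0.24, limma adjusted p = 0.376) in KD and 0.57 (SE 0.24, limma adjusted p = 0.0912) in NC embryos.

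RPS4Y1 reached 24.4% of the FPKM of RPS4X in KD morulae, against 30.9% in KD 8/16-cell embryos, and 16.2% in NC morulae, against 36.8% in NC 8/16-cell embryos. RPS4X itself stood at 555, 538 and 606 FPKM in KD morulae, against 732, 547 and 808 FPKM in NC morulae, with overlap. RPS27L, which is induced by p53 in human cells, reached 25.7% of RPS27 in KD morulae, against 27.7% in KD 8/16-cell embryos, and 19.6% in NC morulae, against 32.5% in NC 8/16-cell embryos. RPL26L1 reached 16.0% of RPL26 in KD morulae, against 18.8% in KD 8/16-cell embryos, and 14.4% in NC morulae, against 21.1% in NC 8/16-cell embryos.

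The ratios of these 3 copies overlapped between the stages in KD embryos but not in NC embryos. In KD 8/16-cell replicates 1 and 2, RPS4Y1 stood at 24.58% and 37.28% and RPL26L1 at 16.21% and 21.45%. KD morulae reached at most 25.97% and 17.13%, so for both copies the overlap rested on replicate 1. For RPS27L replicate 2, at 34.92%, overlapped as well, with 35.18% in KD morula replicate 2. Between KD and NC morulae the ratios overlapped for RPS27L, and not for RPS4Y1 or, by a narrow margin, for RPL26L1. For RPL7L1 and RPL22L1 the ratios overlapped between all groups. RPL7L1 reached between 13.4% and 19.1% of RPL7 in the 10 libraries. RPL22L1 reached between 6.31% and 18.0% of RPL22, with both ends in KD 8/16-cell embryos, where RPL22 was high in replicate 1. RPL39L and RPS4Y2, further known copies, are not among the genes analysed here.

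**Figure D5:**
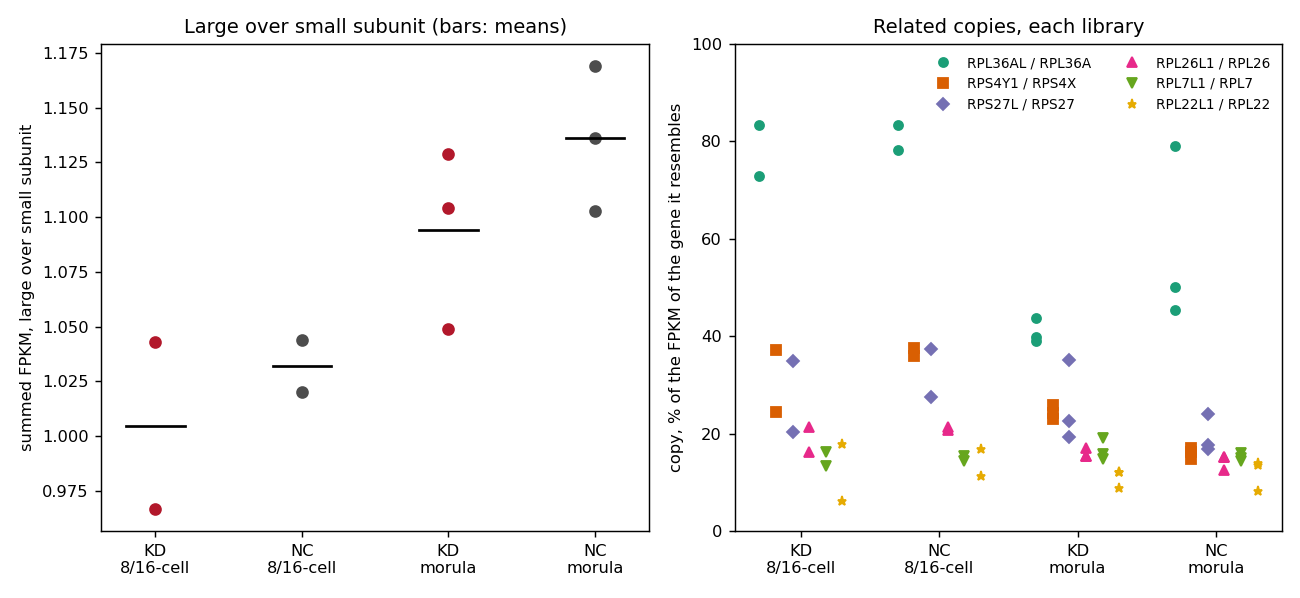
Left, summed FPKM of large-subunit genes over that of small-subunit genes in each library, by group, with bars at the group means; the axis does not start at 0. Right, FPKM of each of 6 copies as a percentage of the gene it resembles, 1 symbol per library. All 6 morula libraries lie above the 4 libraries of the 8/16-cell stage on the left, and the RPL36AL share is near 40% in KD morulae and 72.9% to 83.5% at the 8/16-cell stage on the right.

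Further ribosome genes carry other symbols. FAU, which encodes a small-subunit protein fused to a ubiquitin-like protein, and RACK1, a scaffold on the small subunit, did not pass in any of the 5 comparisons. FAU averaged 1334 FPKM in KD and 1245 FPKM in NC morulae, and 2075 FPKM in KD and 1646 FPKM in NC 8/16-cell embryos.

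Other genes with TOP messenger RNAs and elongation factors numbered 13, all tested. Between KD and NC 0 of 13 passed at either stage, where 0.017% of all tested genes did at the 8/16-cell stage and 0.697% in morulae. They had median log2 differences of 0.11 at the 8/16-cell stage and -0.20 in morulae. EEF1G, a subunit of the complex that reloads EEF1A with GTP, had -0.74 in morulae (limma adjusted p = 0.134). Between stages, where 20% of all tested genes passed in KD and 30.8% in NC embryos, 1 of 13 was lower in KD morulae, the histone chaperone NAP1L1 with -0.71 (SE 0.22, limma adjusted p = 0.0438). In NC morulae 2 of 13 were higher, EEF1B2 with 1.01 (SE 0.29, limma adjusted p = 0.0233) and EEF1A1 with 0.74 (SE 0.25, limma adjusted p = 0.0449), both parts of the machinery that delivers aminoacyl transfer RNA.

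The 72 genes of ribosome biogenesis, which make and assemble ribosomal RNA and protein in the nucleolus, were all tested. Between stages, 11 of 72 were lower and 0 higher in KD morulae, and 14 of 72 were lower and 2 higher in NC morulae. Among all tested genes, 14.8% were lower and 5.22% higher in KD morulae, and 18.2% were lower and 12.6% higher in NC morulae, so the shares of lower genes on this list were close to those of all genes. Their median stage difference was -0.31 in KD and -0.32 in NC embryos, against -0.18 and -0.07 for all tested genes, with 60 of 72 genes below 0 in KD and 50 in NC embryos. NOP56, a core protein of box C/D particles that guide ribosomal RNA methylation, averaged 130 FPKM in KD morulae, against 243 FPKM in KD 8/16-cell embryos (log2 difference -0.90, limma adjusted p = 0.0128). POLR1E, a subunit of RNA polymerase I, had -0.85 in KD (limma adjusted p = 0.00796) and -0.62 in NC embryos (limma adjusted p = 0.0176). Between KD and NC, 0 of 72 passed at the 8/16-cell stage, where 0.017% of all tested genes did. In morulae 1 of 72 passed, where 0.697% of all tested genes did. The gene was BCCIP, which takes part in large-subunit assembly and in DNA repair. It averaged 33.1 FPKM in KD and 67.7 FPKM in NC morulae, a log2 difference of -1.02 (SE 0.18, limma adjusted p = 0.0383). This call was lost when only the morula libraries were fitted and with RN18S1 as a covariate, where 0 of all tested genes passed. The same held without any 1 of the 8/16-cell libraries, without KD morula replicate 2 and without NC morula replicate 1.

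Of 15 regulators of TOP messenger RNAs and ribosome production, 0 passed between KD and NC at either stage, where 0.017% of all tested genes did at the 8/16-cell stage and 0.697% in morulae. Between stages 3 of 15 passed in KD embryos (1 higher, 2 lower), where 20% of all tested genes did, and 2 of 15 in NC embryos (both lower), where 30.8% did. MYC, which drives transcription of ribosomal protein genes in many cells, averaged 15.3 FPKM in KD morulae, against 38.5 FPKM in KD 8/16-cell embryos (log2 difference -1.34, limma adjusted p = 0.0243). It averaged 5.28 FPKM in NC morulae, against 39.8 FPKM in NC 8/16-cell embryos (-2.77, limma adjusted p = 0.000662). Its partner MAX was lower in morulae of both treatments, and MYCN was higher in KD morulae with 1.44 (SE 0.38, limma adjusted p = 0.0258). LARP1 and the mTORC1 genes on the list did not pass in any of the 5 comparisons.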

How the data were processed

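Poly(A)-selected RNA was sequenced in 10 libraries, grouped by the treatment, stage and replicate in their titles; every data column was matched and 0 were left unmatched. The deposited values are FPKM. The submitters' processing notes name the tools Trimmomatic, HISAT2, featureCounts and Cufflinks, without versions, and the builds ARS-UCD1.2 and bosTau9. No counts were analysed, so read depth is unknown, and no interval for counting error is given. The lowest values would put relative depths between 0.712 and 1.44. Whether counting used strand is not given in the sources used here.

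Of 28781 symbols on 39911 lines, 81 symbols on several lines (11211 lines) were left out. After transformation to log2(FPKM + 1), the 11761 genes whose mean reached 1 FPKM were fitted with limma 3.58.1 (limma-trend, R 4.3.3) to 4 group means over all 10 libraries, with 6 residual and 4.63 prior degrees of freedom. The two-sided p-values were adjusted by Benjamini-Hochberg over all 11761 genes, with a threshold of 0.05. The fit was checked on simulated data with independent genes and planted differences larger than those of the ribosomal protein genes. These genes moved together, so the check says nothing about power or error for the family. Medians over chosen genes carry no test.

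The members and lists were chosen with earlier results of these data known. Members were named where they passed a comparison, had 1 of the 5 highest or 5 lowest means, lay over 3 scaled median absolute deviations (1.4826 times the deviation) from the median of the members, are copies with the gene they resemble, or are stalk proteins, RPSA or RPS27A; list genes were named by smallest p. Some genes that these rules select are not reported here. RPL5 was named after its values were seen, as were RPL3, RPL10, RPL36A and RPS19, through the rescaled fits or the plot of stage differences.

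Same-numbered KD and NC morula libraries deviated together from their group means (r = 0.37, 0.325 and 0.312 across all genes), so their numbers were taken as pairs. At the 8/16-cell stage (r = 0.0558, 2 pairs) and between stages they were not. A fit with the number as a block, other scalings, filters and pseudocounts, a covariate and leaving out each library were tried.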

Additional observations from a re-analysis of the deposited data

How the results depend on the processing

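The count of passing ribosomal protein genes between KD and NC stayed at 0 at both stages, and for the interaction, under every alternative run; with the replicate number as a block it was 0 in morulae, where 11.9% of all tested genes passed and the lowest adjusted p of a member was 0.0759. Between stages in KD embryos, 1 gene passed and the count was 0 with no filter on low values, with median-of-ratios scaling and with RN18S1 as a covariate, 2 with equal sums, with equal sums computed without the ribosomal protein genes and without both morula libraries numbered 2, 5 with quantile normalization (2 higher, 3 lower) and 33 with the replicate block, all 33 lower, where 30% of all tested genes passed. In NC embryos 2 passed and the count was 0 with only the groups compared, 4 with equal sums without the ribosomal protein genes, 5 with equal sums, with an equal sum of the ribosomal protein genes and without both libraries numbered 2, 7 with equal sums without MIR2887-1, MIR2887-2 and RN18S1, 12 with quantile normalization and 14 with the replicate block (2 higher, 12 lower), where 39% of all tested genes passed. In these fits, the block aside, 8.9% to 18.3% of all tested genes passed in KD and 12.3% to 32.4% in NC embryos. Leaving out 1 library gave counts of 0 to 4 in KD and 0 to 4 in NC embryos, where 5.89% to 22.9% and 12% to 31.1% of all tested genes passed. The numbers are not taken to pair the stages, so the block there is only an alternative; with it the median of the members was -0.40 in KD and -0.10 in NC embryos. The cause of these differences was not tested.

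The median of the members for KD against NC at the 8/16-cell stage became -0.18 with equal sums, -0.21 with equal sums without the ribosomal protein genes, -0.0128 with quantile normalization and -0.0313 with an equal sum of the ribosomal protein genes, and ran from -0.01 (-0.01001 before rounding) to 0.48 when 1 library was left out. For the interaction these settings gave 0.13, 0.14, -0.00991 and 0.0276, and for the stages in KD embryos 0.18, 0.21, -0.0111 and 0.0217, in the same order. With MIR2887-1, MIR2887-2 and RN18S1 left out of the equal sum, the medians of these comparisons were 0.10, -0.14 and -0.09. With median-of-ratios scaling they were 0.19, -0.21 and -0.09. Equal sums moved the median of all tested genes by more than 0.1, to -0.32, 0.28 and 0.21 in these comparisons.

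The gap between subunits (large minus small) at the 8/16-cell stage, -0.0536, became 0.0112 with quantile normalization and ran from -0.0815 to 0.0176 without 1 library. In morulae, -0.0216 became 0.0486 with RN18S1 as a covariate and -0.0681 without both libraries numbered 2, and ran from -0.0497 to 0.0245. For the interaction, -0.0218 became 0.0226 with quantile normalization and 0.053 with the covariate, and ran from -0.0666 to 0.0611. Between stages in KD embryos, 0.16 became 0.0113 with quantile normalization and 0.213 without both libraries numbered 2, and ran from 0.0582 to 0.213. In NC embryos, 0.15 became 0.101 with quantile normalization and ran from 0.105 to 0.17. Depth is unknown, so no level is called absent.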
